A study of Mus musculus with 2 samples.

Results

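The miR-29 family of the adult mouse cortex comprises 4 miRNA genes, Mir29a, Mir29b-1, Mir29b-2 and Mir29c, chosen by gene symbol from the 2202 miRNA genes in each deposited table. The rule uses the symbol and no measured value, and the family was picked with earlier results of these data known. Small RNA below 30 nucleotides was sequenced by microRNA-seq, an assay that counts mature miRNAs. The samples were left cerebral cortex from B6CASTF1/J mice, 2 females aged 2 months. B6CASTF1/J mice are F1 hybrids, offspring of a cross between C57BL and wild-derived CAST parents, and the tissue holds all cortical cell types together. Both animals were placed in a single group with 1 library each and no genotype, treatment or age was compared, so a difference between animals cannot be told apart from one between library preparations. The labels number the animals separately but list 1 shared donor entry. They are called animal 1 and animal 2 after the replicate numbers in the labels.

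miRNAs pair with messenger RNAs through a short seed near their 5′ end and lower the output of the transcripts they pair with, so genes with the same seed share many targets. The miR-29 family is best known for repressing collagens, elastin and other matrix genes. It also represses the DNA methyltransferases Dnmt3a and Dnmt3b, as first shown in human lung cancer cells. In mouse neurons miR-29b represses BH3-only cell death genes, and the family is known to rise as the postnatal brain matures and to be prominent in astrocytes as well as neurons.

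The 3 mature sequences of the 3′ arm, the arm that carries the family seed, are shown here because they set which hairpins can be told apart by sequencing. The sequences are from RefSeq on GRCm38.p6, the assembly also named mm10, and all 4 members matched. Capitals mark the seed, bases 2 to 8 counted from the 5′ end.
miR-29a-3p: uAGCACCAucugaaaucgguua
miR-29b-3p: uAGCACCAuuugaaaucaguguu
miR-29c-3p: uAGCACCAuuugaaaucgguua
All 3 carried the seed AGCACCA. Among 1738 mature entries of the RefSeq table, 4 had this seed, and all 4 belonged to the genes described here. Over the first 22 bases, miR-29a-3p and miR-29c-3p differed by 1 base, C10U. Between miR-29c-3p and miR-29b-3p 3 bases differed, G18A, U21G and A22U, and miR-29b-3p had 1 further base at its 3′ end. The last 6 bases of miR-29b-3p, AGUGUU, are the element that directs it to the nucleus in human cells. This ending occurred in 2 of the 1674 distinct mature sequences in the table.

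miR-29b-3p is identical in Mir29b-1 and Mir29b-2, on different chromosomes, whereas the mature sequences of Mir29a and Mir29c each occurred at 1 locus. The hairpins of the chromosome 6 pair are printed with the 3′ arm in capitals, because this pair held the members with the highest and the lowest mean level.
Mir29a hairpin: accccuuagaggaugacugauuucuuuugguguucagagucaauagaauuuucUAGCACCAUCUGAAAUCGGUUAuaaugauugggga
Mir29b-1 hairpin: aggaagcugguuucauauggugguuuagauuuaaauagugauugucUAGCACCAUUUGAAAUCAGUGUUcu
The longest identical stretch between the Mir29b-1 and Mir29b-2 hairpins was 25 bases, which is more than the whole mature sequence of 23 bases. Mir29c shared 22 bases with Mir29b-1 and 19 with Mir29b-2. Mir29a shared at most 14 bases with another member, that being Mir29c. No hairpin outside the family shared more than 13 bases with a member. The annotated mature sequences of the 5′ arms of the miR-29b hairpins are less alike, and their longest identical stretch was 9 bases.
miR-29b-1-5p: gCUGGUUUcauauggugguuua
miR-29b-2-5p: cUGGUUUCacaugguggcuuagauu
Capitals again mark bases 2 to 8. The deposited tables count reads per hairpin and do not separate the arms, so how the miR-29b counts divided between the shared 3′ arm and the distinct 5′ arms was not measured. Reads mapping to several places are tallied apart from the genes, and made up 48.9% (animal 1) and 48.2% (animal 2) of mapped reads. Whether any of them were also counted at hairpins is not stated, and these shares assume that none were. The counts of Mir29b-1 and Mir29b-2 are therefore uncertain as levels of miR-29b, and the part of these reads in them was not tested.

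The genes form a pair of head-to-tail clusters, with positions given on mm10 and the GENCODE M21 annotation. Mir29a (ENSMUSG00000065610.1) lies on chromosome 6 at 31062660 to 31062747, minus strand, and overlaps no other annotated gene. Mir29b-1 (ENSMUSG00000065604.2) lies 275 bases upstream of it at 31063023 to 31063093 on the same strand, and its first 2 bases overlap the exon of the lincRNA Gm27019. The nearer end of Lncpint, a long noncoding RNA gene on that strand, is 19471 bases farther upstream. On chromosome 1, plus strand, Mir29b-2 (ENSMUSG00000065412.3) lies at 195037040 to 195037120 and Mir29c (ENSMUSG00000065548.1) at 195037547 to 195037634, with 426 bases between them. Both sit in exon 3 of a retained-intron transcript of the noncoding gene A330023F24Rik. On the opposite strand, both lie within an exon annotated as UTR in Cd46, which encodes a complement regulator.

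All 4 members were detected, which was defined as 2 CPM or more in both animals, where CPM is a gene's count scaled to a total of 1000000 counts over all genes. Of all 2202 genes, 18.8% were detected. The libraries held 4415759 counts at genes in animal 1 and 2279562 in animal 2, so that 1 count was worth 0.226 and 0.439 CPM. Intervals below are exact Clopper-Pearson 95% intervals and express counting error alone, since amplified reads that carry no molecular identifier are not independent molecules. A read spans a whole mature miRNA, so counts of different hairpins were set side by side without division by length. Small RNA ligation is known to favour some sequences over others, so an order of counts between miRNAs need not be their order in molecules.

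Mir29a, the source of miR-29a, was the leading member. It had 37145 counts in animal 1 and 22823 in animal 2, or 8412 CPM (interval 8327 to 8498) and 10012 CPM (9883 to 10142). Its mean level was 9212 ± 1131 CPM (SD, n = 2), the 22nd highest of all miRNA genes. It ranked 24th in animal 1 and 20th in animal 2, so its place differed little between them.

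Mir29c, from the other cluster, encodes the mature miRNA closest to miR-29a. It had 1572 and 1278 counts, equal to 356 CPM (interval 339 to 374) and 561 CPM (530 to 592). Its mean was 458 ± 145 CPM (SD, n = 2), at rank 134. In animal 1 the Mir29a level was 23.6-fold that of Mir29c, and in animal 2 it was 17.9-fold. On the log2(CPM + 1) scale this distance was 4.36 ± 0.28 (SD, n = 2), more than the spread between the animals.

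Mir29b-2 and Mir29b-1, the hairpins with the same 3′ arm, were the lowest. Mir29b-2 had 249 and 158 counts, or 56.4 CPM in animal 1 (interval 49.6 to 63.8) and 69.3 CPM in animal 2 (58.9 to 81.0). Mir29b-1 had 140 and 159 counts, or 31.7 CPM (26.7 to 37.4) and 69.8 CPM (59.3 to 81.5). Their means were 62.9 ± 9.14 CPM at rank 217 and 50.7 ± 26.9 CPM at rank 225 (SD, n = 2), a difference smaller than the spread of Mir29b-1. By counts at hairpins, the order was thus Mir29a, Mir29c and then the miR-29b hairpins. The order of the miR-29b hairpins did not hold beyond the spread between animals. Whether reads mapping to several places lowered the miR-29b counts was not tested.

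**Figure D1:**
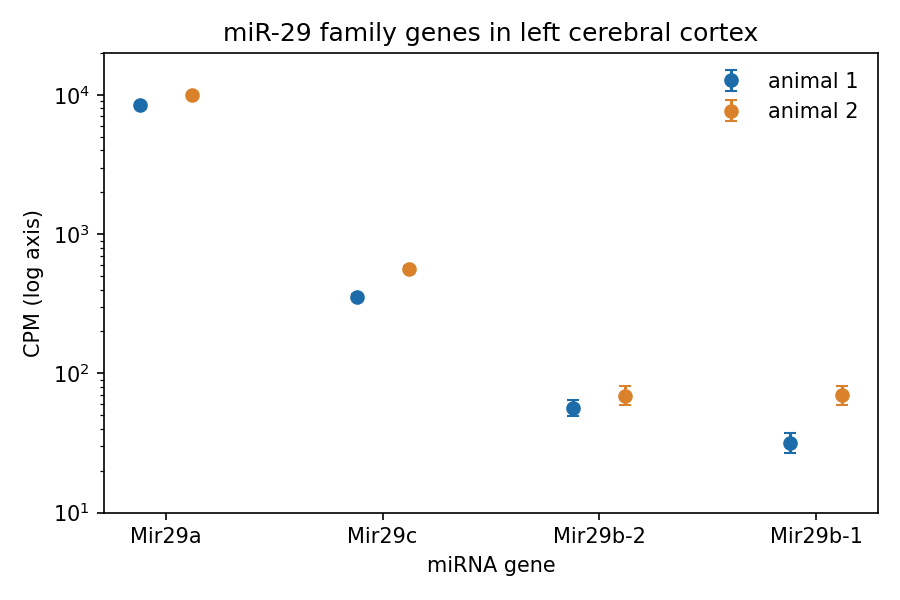
Level of each miR-29 gene in CPM (log axis) in animal 1 and animal 2; bars are exact 95% counting intervals. Mir29a lies at 8412 and 10012 CPM, Mir29c at 356 and 561 CPM, and Mir29b-2 and Mir29b-1 below 100 CPM in both animals.

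The miR-29b hairpins divided their counts differently in the 2 animals. Mir29b-1 held 36.0% of the 389 counts at both hairpins in animal 1 (interval 31.2 to 41.0%) and 50.2% of the 317 in animal 2 (44.5 to 55.8%). These intervals did not overlap. In animal 1 Mir29b-1 was 0.562-fold Mir29b-2, and in animal 2 the hairpins were level at 1.01-fold. This compares 2 libraries, so no p-value is given.

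Together the family held 0.886% of gene counts in animal 1 (interval 0.877 to 0.894%) and 1.07% in animal 2 (1.06 to 1.08%), which averaged 0.978% ± 0.131 (SD, n = 2). Mir29a alone made up 94.99% of the family's 39106 counts in animal 1 (interval 94.8 to 95.2%) and 93.5% of its 24418 counts in animal 2 (93.2 to 93.8%). Mir29c made up 4.02% and 5.23%, and both miR-29b hairpins together 0.995% and 1.30%. By locus, the chromosome 6 cluster held 95.3% and 94.1% of family counts and the chromosome 1 cluster 4.66% and 5.88%. The family share was therefore close to the Mir29a level alone. Without Mir29a the rest of the family summed to 444 and 700 CPM. All these shares are of counts at hairpins, and the part of reads mapping to several places in them was not tested.

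The genes ranked next to each member differed from it in mean CPM by less than the member's own spread between animals. Mir191, one place above Mir29a, had 9528 and 10132 CPM, and Mir30d, one place below, had 8361 and 8377 CPM. Mir134 stood above Mir29c with 481 and 444 CPM, and Mir669c below it with 351 and 504 CPM. Mir3547 and Mir3086 flanked Mir29b-2 at means of 66.3 and 60.7 CPM. Mir135b and Mir344b flanked Mir29b-1 at means of 51.4 and 50.1 CPM.

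The genes with the most similar pair of levels were found by Euclidean distance in log2(CPM + 1) over the 2 libraries. For Mir29a these were Mir191 at a distance of 0.18, Mir151 at 0.26 and Mir30d at 0.26. For Mir29c they were Mir669c at 0.15, Mir101b at 0.17 and Mir381 at 0.19. Mir16-2 at 0.18, Mir203 at 0.33 and Mir493 at 0.35 were nearest to Mir29b-2. Mir135b was nearest to Mir29b-1 at 0.06, with 146 and 159 counts against 140 and 159, followed by Mir592 at 0.47 and Mir345 at 0.52. With 2 libraries, such likeness is of level and of 1 ratio only. None of the 12 nearest genes was a family member.

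Every member was higher in animal 2. A gene was called outside counting error when the exact 95% interval of animal 1's share of its 2 counts left out the share given by the library totals. By this rule 4 of 4 members lay outside, all higher in animal 2. Of the 415 detected genes, 56.6% lay outside in either direction. With a filter of 10 CPM, which every member passed, 67.4% did. Those higher in animal 2 were 29.6% of detected genes and those higher in animal 1 were 27.0%. A higher CPM in animal 2, of any size, was seen at 50.4% of detected genes. The members share this 1 pair of libraries and are not independent of each other.

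The size of the difference varied between members. Mir29b-1 was farthest apart, 2.20-fold higher in animal 2, a log2 ratio of animal 1 over animal 2 of -1.14 (interval -1.48 to -0.80). Mir29c was 1.57-fold higher at -0.66 (-0.76 to -0.55). Mir29b-2 was 1.23-fold higher at -0.30 (-0.59 to -0.0008), and this interval reached almost to 0. With edgeR's TMM factors, DESeq2's size factors or an exact 99% interval, Mir29b-2 was inside counting error and the count fell to 3 of 4. Mir29a was 1.19-fold higher at -0.25 (-0.28 to -0.23), a small difference with a narrow interval.

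Set beside other miRNA genes, the differences of Mir29a and Mir29b-2 were below the median size and those of Mir29c and Mir29b-1 above it. The median absolute log2 ratio over the 415 detected genes was 0.32. At least as far apart as Mir29a were 247 of them, and at least as far as Mir29b-2 were 223. For Mir29c the number was 102 and for Mir29b-1 it was 38, or 9.16% of detected genes. Each cluster thus held 1 member on either side of the median. In bulk tissue, more cells of a type and more RNA per cell cannot be told apart.

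**Figure D2:**
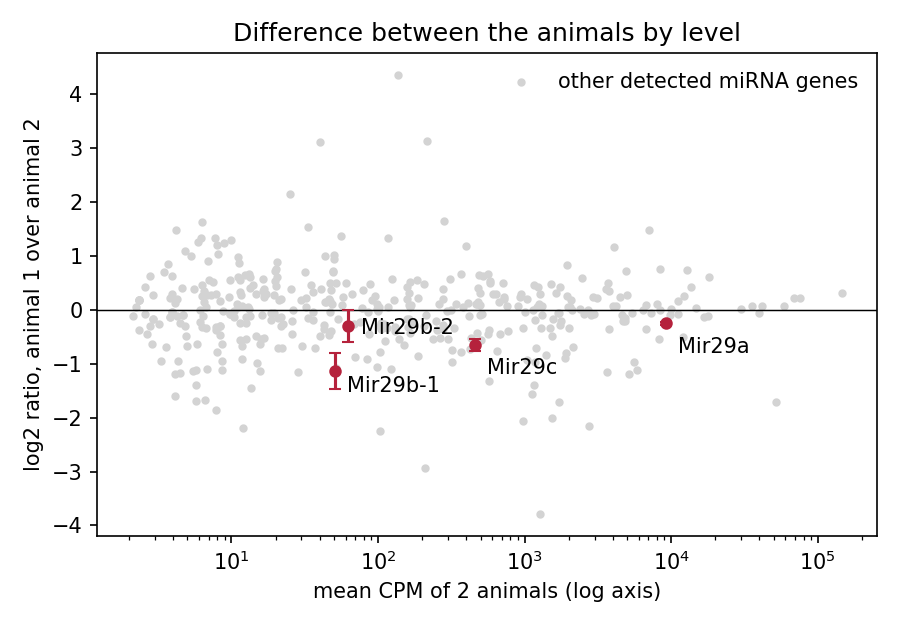
Log2 ratio of animal 1 over animal 2 against mean CPM (log axis) for detected miRNA genes (grey) and the miR-29 genes (red, with exact 95% counting intervals). All 4 red points lie below 0, from -0.25 for Mir29a to -1.14 for Mir29b-1, within the cloud of grey points.

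Markers of cell types also differed between the animals. The oligodendrocyte list, 3 of 3 detected, summed to 1642 CPM in animal 1 against 3461 CPM in animal 2. Mir219a-2 and Mir338 were higher in animal 2 beyond counting error, and Mir219a-1 was inside it at 7.47 and 6.14 CPM. The endothelial and smooth muscle list, 3 of 3 detected, summed to 11469 and 15155 CPM, and the microglia and leukocyte list, 5 of 5 detected, to 1795 and 2343 CPM. Mir126a, Mir143 and Mir145a of the first list were each higher in animal 2 beyond counting error. So were Mir146, Mir150 and Mir223 of the second, while its Mir142 and Mir155 were inside counting error. Mir150 alone held 1319 and 1668 CPM of the second sum. Astrocyte markers other than miR-29, 6 of 6 detected, summed to 11747 and 11044 CPM, of which Mir23a alone held 10479 and 6206 CPM. Mir23a was higher in animal 1. Higher in animal 2 were Mir21a at 376 and 1562 CPM, Mir31 at 171 and 2361 CPM, and Mir146 at 407 and 601 CPM. Mir181a-1 and Mir181a-2 were inside counting error. Mir146 is on the microglia and leukocyte list too. The neuron list, 10 of 14 detected with none at 0 in both animals, summed to 55719 and 102362 CPM. Mir124a-1, Mir124a-2, Mir124a-3 and Mir9-2 were those not detected. Mir132 alone held 24389 and 79576 CPM of the sum. Without Mir132 the list went the other way, at 31330 and 22786 CPM. Beyond counting error, 5 of the 10 detected neuron markers were higher in animal 1 and 3, Mir132 among them, in animal 2. Of all detected genes 27.0% were higher in animal 1 and 29.6% in animal 2. Erythroid markers, 3 of 3 detected, summed to 459 and 91.2 CPM, with Mir451a and Mir144 higher in animal 1 and Mir486 inside counting error at 33.5 and 38.2 CPM. Choroid plexus markers, 2 of 2 detected, summed to 483 and 658 CPM and the liver miRNA Mir122 had 60.9 and 36.8 CPM. Of the choroid plexus markers, Mir204 was higher in animal 2, and Mir211 was inside counting error at 2.72 and 6.14 CPM. Of 6 striated muscle markers 5 were at 0 in both animals, Mir1a-1, Mir1a-2, Mir133a-1, Mir133a-2 and Mir133b, while Mir206 had 23.6 and 16.2 CPM. The part of these shifts in the miR-29 differences was not tested. Nor was it tested whether reads mapping to several places lowered any listed count, the zeros included.

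The hairpins of each cluster lie side by side on the same strand, and on chromosome 6 their counts lay far apart. The log2(CPM + 1) distance of Mir29a and Mir29b-1 was 8.01 in animal 1 and 7.14 in animal 2, with a mean of 7.58 ± 0.61 (SD, n = 2). That of Mir29c and Mir29b-2 was 2.64 and 3.0, with a mean of 2.82 ± 0.26. For comparison, 88 pairs of consecutive miRNA genes on the same strand, at most 10 kb apart, had both genes detected. Their median absolute distance was 3.35. Only 3 of the 88 were farther apart than Mir29a and Mir29b-1, while 48 were farther apart than Mir29c and Mir29b-2.

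In both clusters the lower hairpin was the one whose mature sequence occurs at a second locus. There were 14 detected neighbouring pairs in which 1 gene had mature sequences at a single locus and the other a mature sequence at several, by the RefSeq table. The single-locus gene was higher in both animals in 12 of these 14 pairs. Leaving out the miR-29 pairs, it was higher in 10 of 12, with a median distance of 4.28 and a range of -0.45 to 7.81. The exceptions were Mir192 beside Mir194-2, and Mir98 beside Mirlet7f-2, where the order differed between animals. The largest distance, that of Mirlet7d and Mirlet7f-1, was the one next above Mir29a and Mir29b-1. These counts describe hairpins as counted, and whether reads mapping to several places lowered the several-loci genes was not tested.

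**Figure D3:**
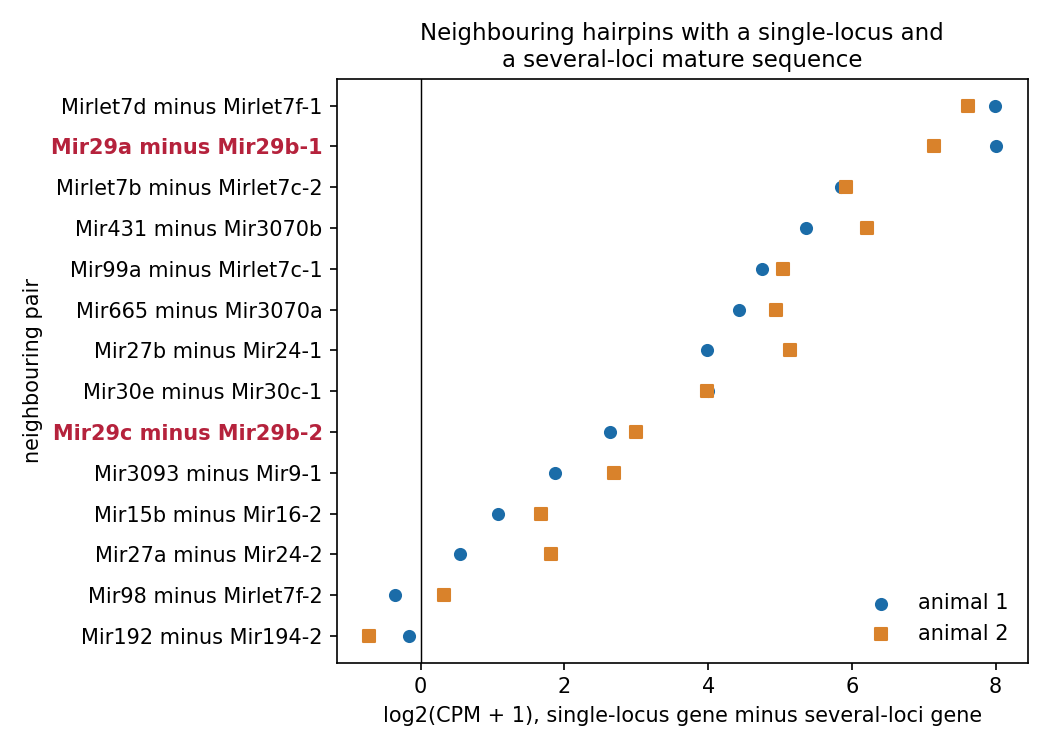
Distance on the log2(CPM + 1) scale between neighbouring miRNA genes, the gene with single-locus mature sequences minus the gene with a several-loci mature sequence, in animal 1 (circles) and animal 2 (squares). In 12 of 14 pairs, both miR-29 pairs (bold) among them, both points lie above 0.

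Across the whole table the order of these groups depended on the setting. Of the 2202 genes 958 matched a RefSeq hairpin, and of these 308 detected genes had single-locus mature sequences and 43 a several-loci one. Mature sequences counted as shared only where identical in full. A further 64 detected genes had no match and were left out. The median level of the first group was 89.0 and 88.4 CPM in animals 1 and 2, and that of the second 62.3 and 86.9 CPM. The ratio of these medians was 1.43 in animal 1 and 1.02 in animal 2. Their mean of 1.22 was 0.921 in unstranded counts and 1.98 with a filter of 10 CPM. Among the 43 several-loci genes, 24 had a mean above Mir29b-1 and 23 above Mir29b-2, so the miR-29b hairpins stood near the middle of this group. Its highest member, Mir128-1, a neuronal miRNA, had 12905 ± 4609 CPM (SD, n = 2).

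On the opposite strand, counts at the members were at or near 0. Mir29b-2 had 1 count opposite it in animal 2, and every other member had 0 in both animals. A count of 0 allows up to 3 counts, or 0.679 and 1.32 CPM in animals 1 and 2. Counts without regard to strand equalled the strand-specific counts for Mir29a, Mir29c and Mir29b-1 in both animals, and differed by 1 count for Mir29b-2 in animal 2.

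Other miRNAs known to act on the same processes showed no common direction. Of 6 miRNAs linked to DNA methyltransferases, all 6 were detected and outside counting error, 4 with more in animal 1 and 2 with more in animal 2. Of all detected genes 56.6% were outside, 27.0% with more in animal 1 and 29.6% with more in animal 2. The median log2 ratio of this list was 0.84, against -0.0029 over all detected genes. Mir148a, which with Mir148b and Mir152 forms a family known to target the maintenance methyltransferase DNMT1 in human cells, had 49.8 and 17.1 CPM. Mir148b had 57.7 and 28.95 CPM and Mir152 had 25.1 and 14.9 CPM, so that family was lower in animal 2, where the miR-29 genes were higher. Mir101a, whose mature miRNA targets the histone methyltransferase EZH2 in human cells, had 168 and 66.2 CPM, whereas its paralog Mir101b had 321 and 529 CPM. Mir143, a smooth muscle miRNA, had 4590 and 5118 CPM.

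Mir143 is also on the endothelial and smooth muscle list above. The list of 13 matrix and fibrosis miRNAs had 8 members detected, and 4 had no count in either animal. Outside counting error, animal 1 was higher for 3 members and animal 2 for 2, near the 56.6% of all detected genes that lay outside. The median log2 ratio of the detected members was 0.19. Mir21a, which promotes fibrosis and is also on the astrocyte list, had 376 and 1562 CPM, and Mir214, a miRNA of mesenchymal cells, had 49.4 and 90.8 CPM. Mir30c-2, which represses the matrix inducer Ctgf in rodent heart cells together with miR-133, had 297 and 258 CPM, and Mir30c-1 had 138 and 121 CPM. Mir200b, an epithelial miRNA, had 72.2 and 8.33 CPM. Mir29a as counted exceeded the sum of all 13, which was 973 and 2076 CPM, in each animal. Whether reads mapping to several places lowered this sum was not tested.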

How the data were processed

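Each library came with 1 table of read counts per miRNA gene, which the authors deposited without normalization. Per the file headers of the accompanying metadata, the build was mm10 with GENCODE M21. The sources used here do not give the aligner, trimming or filters. The tables carry no header, so the roles of the count columns were read from their values, and column 3, the larger strand-assigned sum, was used. The first 4 entries name no gene, held 67.4% of the column sum in animal 1 and 77.5% in animal 2, and stayed out of totals. All gene identifiers matched M21. RefSeq hairpins were matched by same-strand overlap of at least 80%.

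CPM used the sum of gene counts, and log values were log2(CPM + 1). A single group allows no contrast, and no p-value was computed. Alternatives were TMM (edgeR 4.0.16) and DESeq2 1.42.0 size factors, other totals, filters, pseudocounts, columns and intervals, and leaving out a library. Scripts ran in Python 3.11.15 with scipy 1.17.1, and the interval rule was tested on simulated data. The simulated libraries varied by counting error alone, so the test does not cover other variation between animals. Named genes were the members, their 3 nearest genes, rank neighbours, fixed lists and neighbouring hairpins. Other genes in the mixed pairs, Mir128-1 and the host genes were named after values were seen. Members and lists were chosen with earlier results of these data known.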

Additional observations from a re-analysis of the deposited data

Results flagged for a closer look

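A signal lay outside the counts used for the miR-29 genes. Reads mapping to several places numbered 5063531 in animal 1 and 2585568 in animal 2, against 389 and 317 counts at the miR-29b hairpins. How many of them came from miR-29b was not measured.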

How the results depend on the processing

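With both animals kept, 24 of 28 recalculations of the main results stayed within the spread between animals, or within 1.5 times for counts. Some of them could not change: every member exceeded 10 CPM in both animals, so neither that filter nor none could alter the member counts. A fall from 4 to 3 members outside counting error was scored as kept. The family share of 0.978% was 1.14% with Mir139 left out of the total and 0.416% of all mapped reads, as larger or smaller totals must give. Leaving out either animal gave 0.886 to 1.07%; with 2 animals this is each animal's own value and no check of stability. Mir29b-1, at a mean of 50.7 CPM, was 31.7 CPM without animal 2 and 69.8 CPM without animal 1. The ratio of the median level of single-locus over several-loci genes, 1.22 as the mean of both animals, was 0.921 in unstranded counts and 1.98 with a filter of 10 CPM, and ranged from 1.02 without animal 1 to 1.43 without animal 2. These alternatives, those for neighbouring pairs and the neuron list without Mir132 were chosen after seeing the data. The count of single-locus genes higher than their neighbour was 8 of 10 within 1 kb and 11 of 12 at 10 CPM. Of 40 recalculations for single members with both animals kept, 32 kept their place, 6 levels moved with the total, the difference of Mir29b-2 between animals fell inside counting error with TMM and DESeq2 factors, and none reversed. The summed neuron markers reversed without Mir132, from a log2 ratio of animal 1 over animal 2 of -0.88 to 0.46. The miR-29b counts, 140 to 249 per library, are limited by depth, and the part of reads mapping to several places was not tested. No paired analysis was possible because there was 1 group.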
